A study of Mus musculus with 12 samples.

Results

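The 12 RNA sequencing libraries of mouse bone marrow-derived macrophages were sorted by their level of Nos2, the gene for inducible nitric oxide synthase, which macrophages switch on after contact with bacteria. Libraries above 100 CPM (counts divided by the library's total and put on a common scale) form the Nos2-high class and those below it the Nos2-low class. All 12 of the 12 libraries entered, 6 in each class. The Nos2-high class holds the 3 libraries labelled WT LPS and the 3 labelled KO medium, and the Nos2-low class holds the 3 labelled WT medium and the 3 labelled KO LPS. The split is therefore the same comparison as the labelled genotype-by-treatment interaction, and Nos2 chose it, so every difference between the classes is a description and supports nothing by its p-value.

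The macrophages were grown with M-CSF in RPMI 1640 from marrow of femurs and tibias. Both genotypes carry NLRC3 fl/fl alleles, that is, Nlrc3 flanked by sites that Cre recombinase cuts. WT is LysM-Cre negative, and KO (NLRC3ΔMac) is LysM-Cre positive, with Cre driven by the LysM promoter, which is active in myeloid cells. The LPS groups received lipopolysaccharide for 12 h and the medium groups none. Whether each replicate came from a different animal is not in the labels. A p-value here therefore reflects the scatter of these libraries alone, part of which may be technical. In bulk RNA, fewer cells of a type and less RNA per cell cannot be told apart.

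Lipopolysaccharide, from the outer membrane of gram-negative bacteria, is sensed on macrophages by TLR4 with its helpers CD14 and MD-2. The adaptor MyD88 leads to NF-kappaB and early cytokines, and the adaptor TRIF leads to IRF3 and interferon beta, which then acts back on the cell through the interferon receptor. A macrophage exposed for hours also takes up more glucose, makes itaconate and nitric oxide, and switches on brakes such as IkappaB alpha, A20 and the SOCS proteins.

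Nlrc3, the targeted gene (chromosome 16, 3945007 to 3976632, build mm10), was set against the labels. Levels here and below are CPM scaled by TMM factors, which correct for library composition. Nlrc3 stood at 1.04, 4.32 and 1.71 in WT LPS and at 1.41, 1.21 and 1.11 under the KO medium label. Its levels were 7.30, 12.3 and 7.09 in WT medium and 12.9, 6.68 and 4.91 in those labelled KO LPS. With LPS on the label, the KO libraries thus had more Nlrc3 than the WT libraries, which goes against the genotype label, and with medium they had less. Each of these comparisons is also one between Nos2 classes, and within WT alone Nlrc3 was lower with LPS (-1.89 ± 0.53 on the log2 scale, SE). Within each class the WT and KO labels overlapped. Nlrc3 therefore does not show a deletion under the KO label in either class. Which exons the floxed allele loses is not given in the sources used here, so a gene-level count may include reads outside the deleted part. The name "libraries labelled KO" is kept for this reason, and the label conflict was not resolved here.

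Nos2 (chromosome 11, 78920787 to 78960254) was 2815, 818 and 3303 in WT LPS and 3859, 1634 and 2966 in the libraries labelled KO medium. It was 4.39, 3.53 and 5.72 in WT medium and 4.51, 1.14 and 0.560 in those labelled KO LPS. In plain CPM, the scale of the rule, the lowest Nos2-high library was WT LPS 2 at 831 and the highest Nos2-low library was WT medium 3 at 8.35, so no library lay near the threshold of 100. The libraries labelled KO LPS were at the level of cells without LPS, and those labelled KO medium at the level of WT cells with it.

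**Figure D1:**
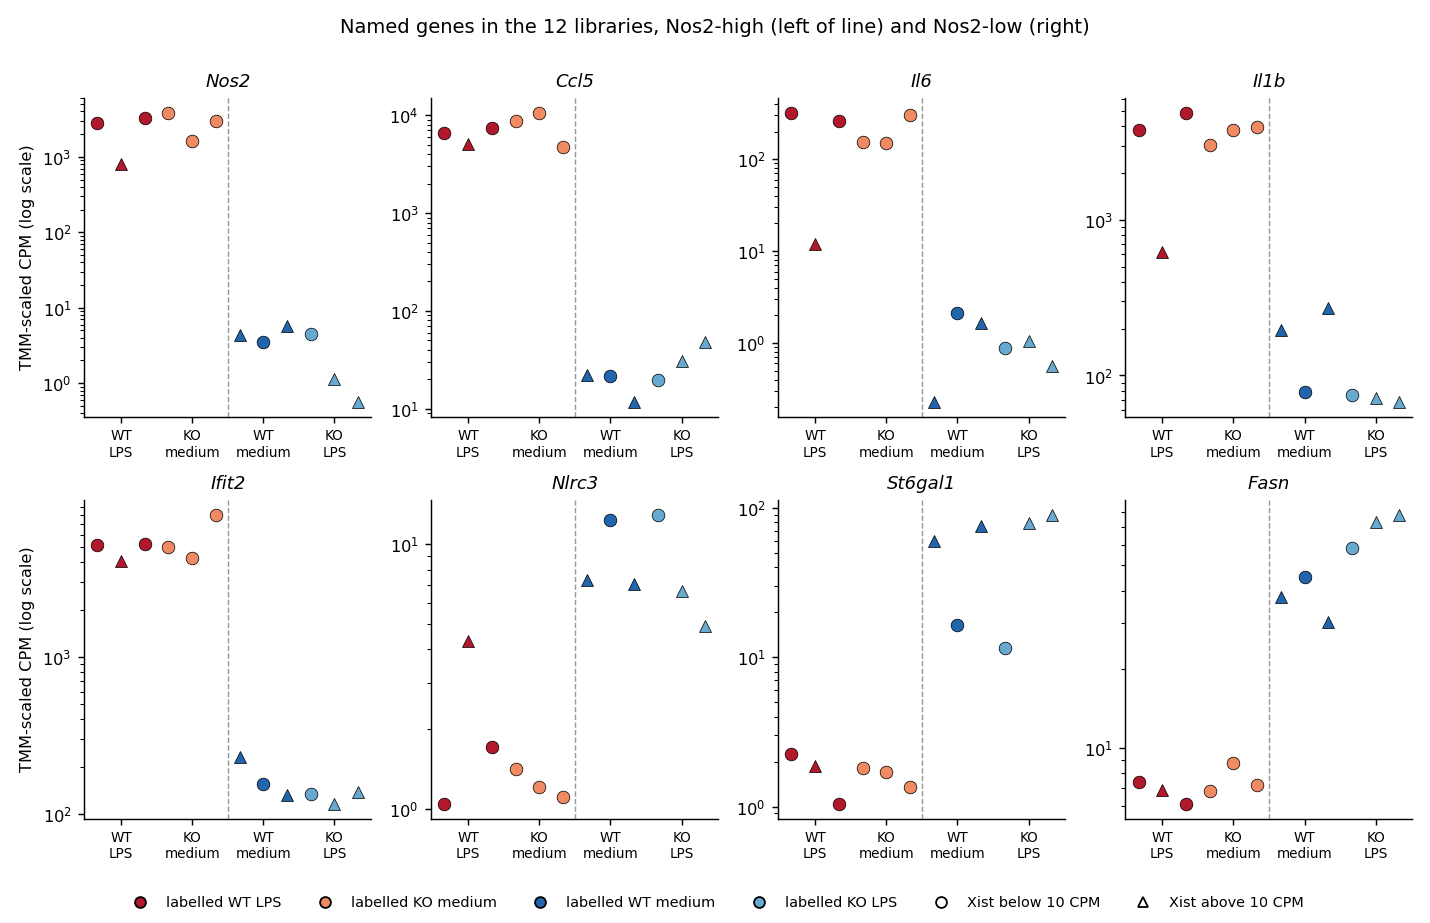
Scaled CPM on a log axis of 8 genes in each of the 12 libraries, 1 point per library, coloured by labelled group, with triangles where Xist exceeded 10 CPM. For each of the 8 genes the 6 libraries left of the dashed line and the 6 to its right do not overlap, and WT LPS 2 has the lowest Il6 of the Nos2-high libraries at 12.1.

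The promoters of a few genes that separate the classes are shown because they carry the letters through which the signalling arms are known to act. They are the bases directly before the RefSeq transcription start (GRCm38.p6, the same coordinates as mm10), written 5′ to 3′ on the gene's strand. Capitals mark matches on either strand to the kappaB core, bound by NF-kappaB, and to the interferon-stimulated response element, bound by ISGF3 and IRF factors. In Fasn, the fatty acid synthase gene, capitals mark CCAAT, the box bound by NF-Y.
Cxcl10, chr5:92348890-92349109, minus strand: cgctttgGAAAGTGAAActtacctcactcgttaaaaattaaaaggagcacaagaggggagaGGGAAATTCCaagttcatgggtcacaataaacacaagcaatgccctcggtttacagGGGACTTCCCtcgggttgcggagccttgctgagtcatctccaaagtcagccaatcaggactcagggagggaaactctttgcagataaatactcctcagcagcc
Il6, chr5:30012994-30013113, plus strand: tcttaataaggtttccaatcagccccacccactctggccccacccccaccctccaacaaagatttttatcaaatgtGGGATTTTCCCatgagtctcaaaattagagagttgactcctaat
Nfkbia, chr12:55492648-55492767, minus strand: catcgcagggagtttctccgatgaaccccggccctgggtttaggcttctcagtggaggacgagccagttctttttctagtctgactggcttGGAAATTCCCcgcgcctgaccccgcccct
Myd88, chr9:119340019-119340138, minus strand: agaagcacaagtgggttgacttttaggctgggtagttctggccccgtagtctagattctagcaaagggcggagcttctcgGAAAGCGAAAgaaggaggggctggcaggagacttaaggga
Fasn, chr11:120824548-120824667, minus strand: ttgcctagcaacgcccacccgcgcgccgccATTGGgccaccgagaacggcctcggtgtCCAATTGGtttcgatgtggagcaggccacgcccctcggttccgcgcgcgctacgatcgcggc
The Cxcl10 stretch holds 1 response element and 2 separate kappaB cores, and the Il6 stretch holds 2 overlapping cores read as 1 run. The Nfkbia stretch has 1 core, the Myd88 stretch has 1 response element, and the Fasn stretch has 3 CCAAT matches, of which 2 overlap. Another Nfkbia core, at bases -212 to -203 from the start, lies outside the printed stretch.

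Over whole promoter windows (250 bases before to 50 after the start), 7949 of 13761 tested genes with a symbol of their own had a single full-length entry. The interferon-stimulated response element was in 7.24% of promoters of genes called higher in the Nos2-high libraries, in 1.99% of those called lower and in 3.56% of all tested. In the list of interferon-stimulated genes, 17 of 25 promoters held it (68%). The kappaB core was almost as common in genes called lower (26.6%) as in genes called higher (28.5%), with 26.2% over all tested. It was in 8 of 13 promoters of the cytokine list (61.5%), and also in 8 of 17 of the cholesterol and fatty acid synthesis list (47.1%), whose called members were all lower. The CCAAT box was in 16 of 17 promoters of the cholesterol and fatty acid synthesis list, against 39.4% of all tested. A match is a description of letters, and the strong kappaB form, which the core includes, was in only 33 of the 7949 promoters (0.415%). By call, that form was in 13 of 1629 promoters of genes called higher (0.798%) and 4 of 1712 called lower (0.234%). Among genes not called it was in 16 of 4608 (0.347%).

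A gene is called where its p from edgeR's quasi-likelihood fit, after Benjamini-Hochberg adjustment over all genes, was under 0.05, and here the call only sorts genes. Of 13773 genes tested, 5657 were called (41.1%), 2832 higher (20.6%) and 2825 lower (20.5%) in the Nos2-high libraries. Since the split itself was chosen by Nos2, nothing is read from these shares other than the background for the lists below. The directions differed in size: 524 genes were higher by at least 8-fold and 135 lower, and at 32-fold the numbers were 143 and 14. In scaled CPM, 1642 genes (11.9%) were higher in all 6 Nos2-high libraries than in any Nos2-low library, and 1263 (9.17%) were lower. In plain CPM these were 907 (6.59%) and 3198 (23.2%). The balance depends on scaling. With library size alone, 1538 genes were higher and 6597 lower, and the median over all tested genes moved from -0.05 to -0.72 on the log2 scale. Directions of small differences below are therefore relative to the TMM scale.

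The TMM factors themselves did not overlap between the classes, at 0.800 ± 0.116 in the Nos2-high and 1.27 ± 0.125 in the Nos2-low libraries (SD, n = 6 each; exact permutation test, 2-sided, p = 0.00216, adjusted over 4 library measures 0.00866). That p is the smallest that the 924 possible splits allow and restates the lack of overlap. Because Nos2 chose the split and the factors come from the same counts, the p-values of these 4 measures are descriptions too. Total counts overlapped between the classes, at 13082947 to 20960505 over all libraries (exact permutation p = 0.775). The number of genes with a count was 18241 ± 635 against 18923 ± 246 (n = 6 each; exact permutation p = 0.0325, adjusted 0.0649), and the 10 most abundant genes took 12.97% against 14.8% of counts (exact permutation p = 0.0844, adjusted 0.113).

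The largest positive differences among named genes with at least 5 CPM and no overlap were led by Nos2 itself, at 9.70 ± 0.68 on the log2 scale (SE, 6 against 6 libraries, as for all differences below). Ccl5, a chemokine for T cells and monocytes (chromosome 11, 83525778 to 83530518), stood at 6594, 5125, 7443, 8681, 10650 and 4791 in the Nos2-high libraries. In the Nos2-low libraries it stood at 22.1, 21.6, 11.6, 19.5, 30.8 and 47.7, a difference of 8.19 ± 0.40. Cxcl10, an interferon-induced chemokine whose promoter is printed above, ran from 1054 to 6681 against 13.8 to 35.7, with a difference of 7.89 ± 0.49. WT LPS 2 was the lowest of the high libraries for Cxcl10, and the highest was the library labelled KO medium 3.

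Cytokines of the interleukin-1 and interleukin-10 families filled much of the remaining rank. Il1a, which encodes a danger cytokine, was 142 to 2004 against 2.67 to 6.01 (8.03 ± 0.65). Il19, an interleukin-10 family member, was 4.09 to 231 against 0 to 0.901 (8.72 ± 1.15), and Il1f6, which encodes interleukin-36 alpha, was 3.90 to 27.8 against 0 to 0.554 (8.13 ± 0.83). For 4 other genes the Nos2-low class had almost no counts, so a fitted difference would depend on the prior count and the ratio of summed counts is given. Il23r, a subunit of the interleukin-23 receptor, had 896 counts against 2, a ratio of 721 with an exact 95% counting interval of 199 to 5966. The counts were 965 against 2 for Shisa3, 622 against 3 for the alarmin Il33 and 710 against 4 for the cytokine-like Fam3b. Those intervals cover counting error only. The homeobox factor Lhx2, at 16.1 to 70.6 against 0.125 to 0.264 (7.98 ± 0.41), and the lipase gene Lipg, at 90.4 to 289.5 against 0.277 to 0.947 (7.99 ± 0.41), complete the set.

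The 12 largest negative differences were led by Lrrc14b (-5.76 ± 1.01) and Nat8l, the N-acetylaspartate synthase (-5.37 ± 0.95). Both were no longer called when only the 7 libraries with Xist below 10 CPM were fitted, at -3.12 and -2.55. St6gal1, a sialyltransferase of glycoproteins (chromosome 16, 23224740 to 23360350), was 2.26, 1.88, 1.04, 1.81, 1.71 and 1.36 in the Nos2-high libraries. In the Nos2-low libraries it was 59.9, 16.5, 75.9, 11.5, 79.9 and 90.4, a difference of -5.04 ± 0.56. The groups are far apart, but WT medium 2 and the library labelled KO LPS 1 sit well below the other Nos2-low libraries. Lpin1, a phosphatidate phosphatase that makes diacylglycerol, showed the same order, at 0.149 to 1.78 against 6.79 and 7.13 in those libraries and 24.2 to 53.5 in the other 4 (-5.18 ± 0.67).

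Lysosomal genes in this set were Mcoln3, an endolysosomal cation channel (-5.08 ± 0.79), Slc46a3, a lysosomal transporter (-4.23 ± 0.48), and Sgsh, the sulfamidase of heparan sulfate breakdown (-4.22 ± 0.58). Sesn1, a sestrin that restrains mTORC1, was 1.86 to 4.003 in 5 Nos2-high libraries, 21.6 in WT LPS 2 and 64.2 to 165 in the Nos2-low libraries (-4.42 ± 0.61). The remaining members were Amz1 (-4.57 ± 0.36), Ldlrad3 (-4.48 ± 0.51), Tmem273 (-4.31 ± 0.49) and the ubiquitin ligase Rnf144b (-4.08 ± 0.58).

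Of 23 tested cytokines in the list of LPS-induced cytokines, 22 were called higher and none lower, with a median log2 difference of 4.33 against -0.05 over all tested genes. The exception, not called, was the angiogenic factor Vegfa, at a mean of 62.9 in the Nos2-high and 106 in the Nos2-low libraries. Il6, the fever cytokine (chromosome 5, 30013114 to 30019981), was 321, 12.1, 262, 154, 149 and 300 in the Nos2-high libraries. It was 0.227, 2.15, 1.67, 0.891, 1.06 and 0.560 in the Nos2-low libraries (7.57 ± 0.83). Its 6 and 6 libraries did not overlap, and WT LPS 2 stood apart at 12.1 where the other Nos2-high libraries had 149 or more.

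Il1b, made as a precursor that caspase-1 cleaves, was 620 to 4892 against 67.3 to 273 (4.87 ± 0.50), and Tnf was 112 to 1282 against 17.6 to 86.3 (4.33 ± 0.64). Here again the lowest Nos2-high value belonged to WT LPS 2. Il10, the main anti-inflammatory cytokine of macrophages, was 67.2 to 330 against 3.05 to 6.29 (5.60 ± 0.41). Il27, at means of 371 and 1.64, showed a larger difference (7.78) than Il12b, at 41.2 and 0.967 (5.55). Ifnb1, whose product starts the interferon loop, was low in every library, at 1.04 to 3.12 against 0 to 0.416 (4.17 ± 0.62). Il15, at 126 to 290.5 against at most 22.7 (3.70 ± 0.22), and Il18 (3.54 ± 0.25) had smaller differences.

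Among 21 chemokines, 17 were called higher and none lower (median 3.53). Cxcl11, Cxcl9 and Cxcl10, the ligands of CXCR3, had differences of 9.94, 7.14 and 7.89. The Cxcl11 difference is larger than that of Nos2, but Cxcl11 did not pass the selection of the ranked genes above. That selection also left out pseudogenes, unnamed gene models and sex-linked transcripts. The neutrophil chemokines Cxcl1, Cxcl2 and Cxcl3 had smaller ones, 3.42, 3.53 and 3.10. Ccl2, the monocyte chemokine, was not called although its libraries did not overlap, at means of 514 and 77.0. Cxcl5, Cxcl14 and Ccl6 were not called either, and the last 2 had negative differences of -1.76 and -0.51.

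Of 30 enzymes and effectors of the LPS response, 26 were called higher and none lower (median 3.88). Acod1, which makes itaconate, was 7248, 2277, 7194, 7077, 6323 and 8219 in the Nos2-high libraries and 32.5 to 121 in the Nos2-low libraries (6.57 ± 0.49). The 5 Nos2-high libraries other than WT LPS 2 lay close together. Slc28a2, a nucleoside transporter, was 695 to 2198 against 15.6 to 25.6 (6.44 ± 0.34), and Ptges, the inducible prostaglandin E synthase, was 258 to 744 against 4.004 to 10.5 (6.27 ± 0.39). Genes that feed or support nitric oxide synthase were higher with it: the arginine transporter Slc7a2 (6.29), Gch1, which starts cofactor synthesis (3.27), and Ass1, which rebuilds arginine (3.23). Arg1, which competes for arginine, overlapped and was not called, at 23.2 to 238 against 0.527 to 126 (1.71 ± 0.96). Its highest Nos2-low library was the one labelled KO LPS 1, and without that library the difference was 3.83 and called.

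The receptor complex itself differed less. Of 23 tested members of the TLR4 complex and its adaptors, 9 were called higher and 2 lower (median 0.34). That is 47.8% called, against 41.1% of all tested genes. Scaled by library size alone, 7 were higher and 5 lower (median -0.35), and in the 7 libraries with Xist below 10 CPM 11 were higher and 0 lower (median 0.84). Tlr4 was not called, at means of 41.98 and 55.6, whereas the co-receptors Cd14 (1.56) and Ly96, which encodes MD-2 (1.64), were called higher. Myd88, the shared adaptor whose promoter is printed above, was 229 to 521 against 75.2 to 117 (2.33 ± 0.21). Ticam1, which encodes TRIF, was not called (0.37). The kinases Tbk1 (1.70 ± 0.18), Ripk2 (3.10), Ikbke (1.98) and Irak2 (1.50) were higher, while Irak1 (-0.81 ± 0.17) and Tab1 (-0.91 ± 0.23) were lower; both lower calls were lost, at -0.71 and -0.93, in the 7 libraries with Xist below 10 CPM.

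Of 11 tested NF-kappaB subunits and IkappaB proteins, 10 were called higher and none lower (median 2.22), and Nfkbid was not called. Nfkbia, the IkappaB alpha gene that NF-kappaB itself induces, was 872, 199, 973, 865, 804 and 884 in the Nos2-high libraries and 63.9 to 80.9 in the Nos2-low libraries (3.43 ± 0.34). WT LPS 2 is the low one of the 6 high values, and the other 5 lie close together. Nfkbie had a difference of 3.10 ± 0.32. Among the subunits Nfkb2 (2.92) and Relb (1.98) were further apart between the classes than Rela (1.12).

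Of 24 tested negative feedback genes, 18 were called higher and 3 lower (median 2.67). Socs3, a brake on cytokine receptor signalling, was 321 to 1746 against 15.4 to 28.3 (6.03 ± 0.42), and Cd274, which encodes PD-L1, was 1041 to 2640 against 80.9 to 127 (4.17 ± 0.27). Tnfaip3, which encodes A20, differed by 3.71 and Dusp1, a phosphatase of p38 and JNK, by 2.80 ± 0.30. The 3 lower members were Nlrc3 (-2.30 ± 0.38), Nlrx1 (-0.84) and Sigirr (-2.49 ± 0.67), which code for receptors that dampen innate signalling. Sigirr was at most 4.26 in any library and lost its call in the libraries with Xist below 10 CPM.

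All 40 of the 40 interferon-stimulated genes were called higher, with a median of 3.64. Ifit2, an antiviral RNA-binding protein gene, was 5138, 4060, 5220, 5000, 4238 and 8068 in the Nos2-high libraries and 232, 155, 133, 135, 116 and 139 in the Nos2-low libraries (5.13 ± 0.27). The libraries of each class lay closer together for Ifit2 than for Il6, and WT LPS 2 was near the others. Isg20, an exonuclease gene, was 521 to 961 against 8.72 to 24.6 (5.54 ± 0.29). The span ran from Irf9 (0.78), a subunit of ISGF3, to Ifi205 (7.43), with Rsad2, which encodes viperin, at 6.40 and Mx1 at 5.46. Stat2 (2.18), another ISGF3 subunit, was higher as well.

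Antigen presentation split by class. In the list of MHC class I loading and immunoproteasome genes, 15 of 16 were called higher (median 2.34), among them the peptide transporters Tap1 (3.08 ± 0.29) and Tap2 (2.63 ± 0.23), the immunoproteasome subunit Psmb9 (2.69) and the activator Nlrc5 (2.58). In the MHC class II list 1 of 10 was called higher and 1 lower (median 0.30; 20% called, below the 41.1% of all tested genes). The class II transactivator Ciita was 2.90 to 10.9 in the Nos2-high libraries. In the Nos2-low class it was 43.7 to 65.4 in 4 libraries and 6.31 and 5.03 in WT medium 2 and the library labelled KO LPS 1 (-2.49 ± 0.64). The classes overlap because of those libraries, and with only the 7 libraries with Xist below 10 CPM the difference was 0.30. H2-Ab1 (0.65 ± 0.23) was the member called higher, and its call was lost in 12 of 20 other settings, among them the replicate block (0.63) and library size alone (-0.02).

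Of 14 tested costimulatory and checkpoint molecules, 12 were called higher and none lower (median 3.04). Cd69, an early activation antigen, was 170 to 1125 against 1.77 to 4.78 (7.74 ± 0.45), and Cd40, the receptor for T cell help, had means of 1500 and 15.1. Cd86 differed by 3.70 and Cd80 by 2.17. Of 22 inflammasome and cell death genes 17 were called higher and 1 lower (median 2.04). Mlkl, the executioner of necroptosis, was 237 to 394 against 17.4 to 36.9 (3.71 ± 0.26), and the caspase genes Casp4 (3.96) and Casp1 (3.21), Nlrp3 (2.66) and Gsdmd (1.77) were higher. Nlrp1b was lower (-2.62 ± 0.65), and the adaptor gene Pycard was not called (0.83).

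Transcription factors of the LPS response were mixed, 16 of 30 called higher and 4 lower (median 0.96; 66.7% called, against 41.1% of all tested genes). Batf2, a partner of IRF1, was 65.1 to 266 against 5.84 to 8.91 (4.70 ± 0.32), and Mafk was 60.4 to 99.1 against 27.6 to 32.3 (1.46 ± 0.16). Cebpb (2.29), Stat3 (2.07) and Irf1 (2.28) were higher, and Irf3 (-0.10) was not called. Of 17 immediate early genes 8 were called higher and 2 lower (58.8% called, beside the same 41.1%). Klf6 (2.20 ± 0.23) and Dusp1 were higher, while Egr2 (-1.58 ± 0.33) and Fos (-1.18 ± 0.28), both typical of the first response to a stimulus, were lower. With library size alone 10 of the 30 transcription factors were higher and 10 lower, and 4 immediate early genes were lower.

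**Figure D2:**
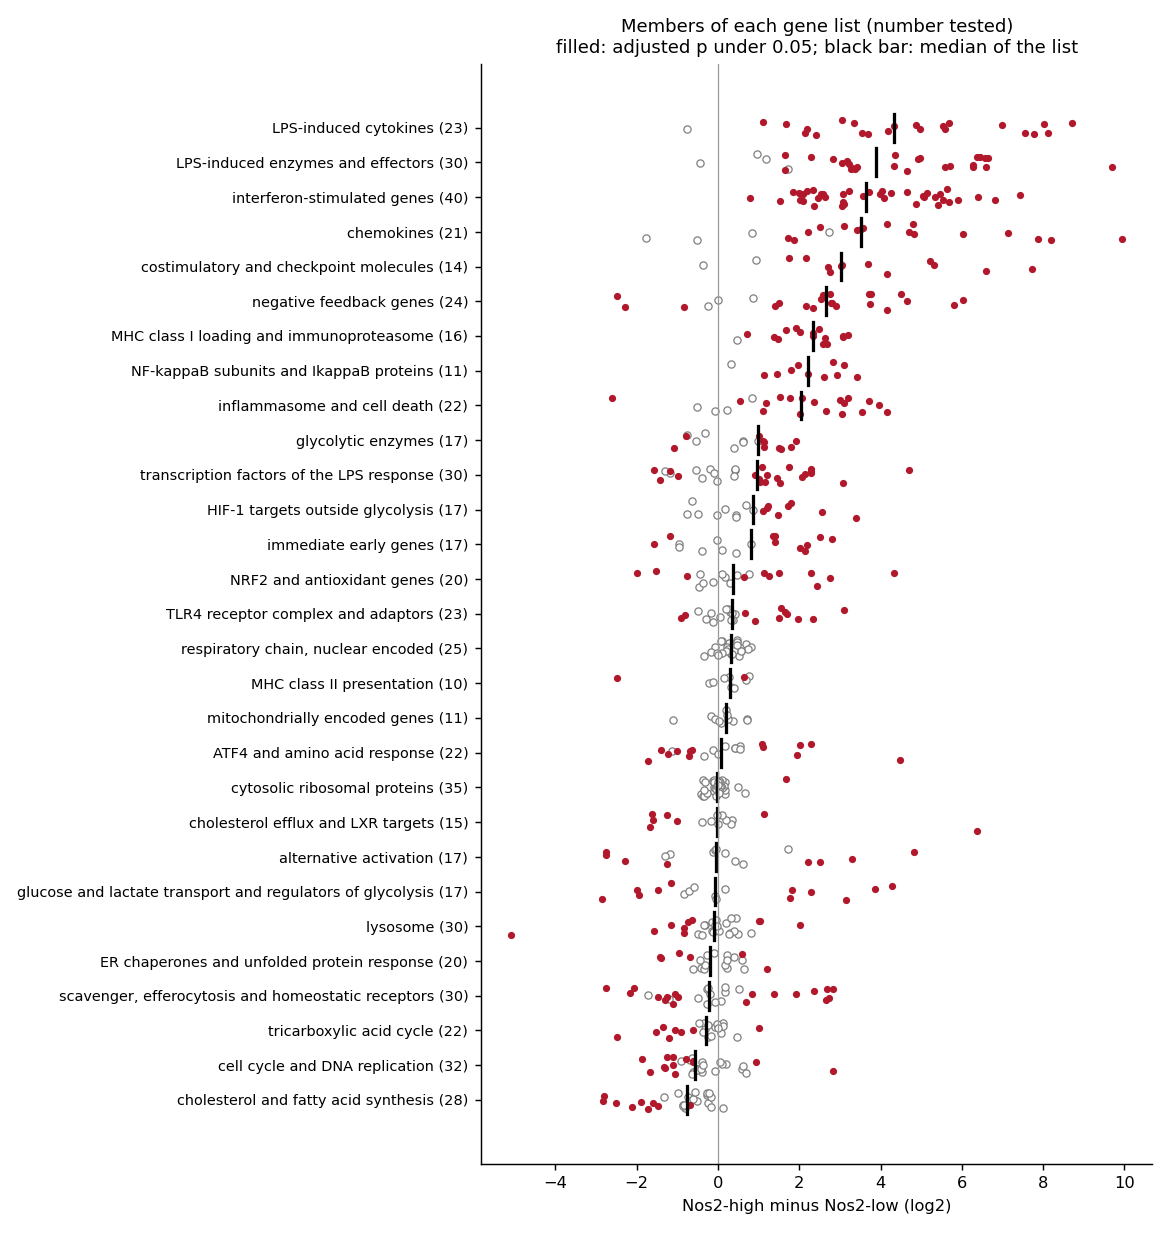
Log2 difference between Nos2-high and Nos2-low libraries for each tested member of 29 gene lists, 1 point per gene, filled where called, with the list median as a black bar and lists ordered by it. The cytokine list has the highest median at 4.33 and the cholesterol and fatty acid synthesis list the lowest at -0.77.

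Pfkfb3, which makes the activator of phosphofructokinase, was 1005, 953, 1458, 1144, 580 and 1267 in the Nos2-high libraries and 28.8 to 104 in the Nos2-low libraries (3.87 ± 0.39). WT LPS 2 lay within the range of the other high libraries here. The glucose transporters Slc2a6 (4.28 ± 0.45) and Slc2a1 (2.28 ± 0.37) were higher, and the lactate exporter genes Slc16a1 (3.14) and Slc16a3 (1.83) too. The regulators Pdk2 (-2.87 ± 0.42), Pfkfb4 (-1.17) and Pfkfb2 (-1.98) and the transporter Slc2a8 (-1.47 ± 0.25) were lower. Of the 17 tested genes in that list, 6 were called higher and 5 lower (median -0.07), and with library size alone 9 were lower. On the TMM scale that is 64.7% called, against 41.1% of all tested genes.

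Of 17 glycolytic enzymes, 8 were called higher and 2 lower (median 0.99; 58.8% called, against 41.1% of all tested genes). The hexokinases Hk3, at 734 to 1069 against 150 to 328 (1.79 ± 0.21), and Hk2, at 95.5 to 206 against 40.9 to 72.5 (1.49 ± 0.21), did not overlap, nor did phosphofructokinase Pfkl (1.56 ± 0.19). The scarce enolases Eno2 (-0.78 ± 0.20) and Eno3 (-1.07 ± 0.22) were lower, and Eno2 lost its call, at -0.84, in the libraries with Xist below 10 CPM. Ldha, which makes lactate, was 1231 to 2007 in the Nos2-high libraries. It was 393, 469, 402 and 464 in 4 Nos2-low libraries but 1581 in WT medium 2 and 1332 in the library labelled KO LPS 1 (1.11 ± 0.40).

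Pkm, the pyruvate kinase gene, had the same order, at 2643 to 3851 against 1377 to 1811 in 4 Nos2-low libraries and 3026 and 3535 in those same libraries (0.62 ± 0.28, not called). The summed level of the glycolytic list was 8178 to 10640 in the Nos2-high libraries, 7842 in WT medium 2, 8590 in the library labelled KO LPS 1 and 3692 to 4433 in the other 4 Nos2-low libraries. Neither of those libraries had Nos2 above 5 scaled CPM. With the 7 libraries with Xist below 10 CPM alone, 5 enzymes were called higher and 1 lower, and Ldha (0.26) was not called. With library size alone the list had 4 higher and 5 lower. Leaving out any of 10 of the 12 libraries in turn also ended the call of Ldha, at 0.94 to 1.17. The enzyme Gapdh has many near-identical copies in the genome, and its count is uncertain.

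**Figure D3:**
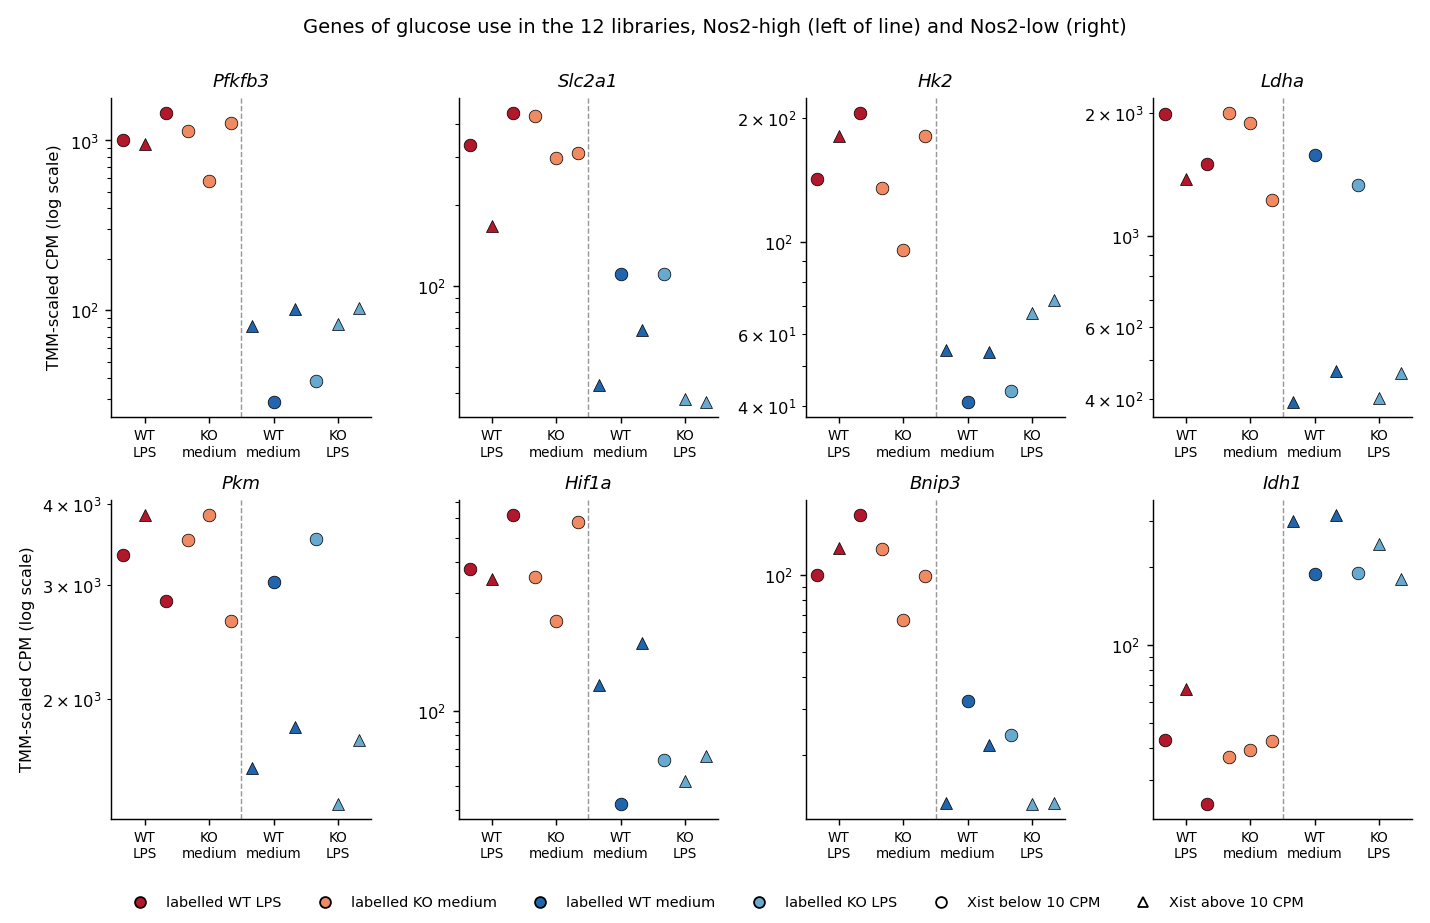
Scaled CPM on a log axis of 8 genes of glucose use in the 12 libraries, 1 point per library, with triangles where Xist exceeded 10 CPM. Ldha and Pkm reach Nos2-high levels in the 2 Nos2-low libraries drawn as circles, at 1581 and 1332 for Ldha, while Pfkfb3 is at 28.8 and 38.6 there.

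Hif1a, which encodes the oxygen-regulated factor that drives many of these genes, was 232 to 622 against 42.1 to 189 (2.29 ± 0.36). Of 17 HIF-1 targets outside glycolysis, 8 were called higher and none lower (median 0.86), among them the adenylate kinase Ak4 (3.39 ± 0.26) and the mitophagy receptor Bnip3 (2.56 ± 0.29). That is 47.1% called, near the 41.1% of all tested genes, of which 20.6% were called higher. With library size alone 4 were higher and 4 lower.

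Of 22 genes of the tricarboxylic acid cycle, 7 were called lower and 1 higher (median -0.29). That is 36.4% called, against 41.1% of all tested genes. Idh1, the cytosolic isocitrate dehydrogenase, was 42.8, 67.5, 24.3, 37.0, 39.1 and 42.6 in the Nos2-high libraries and 301, 188, 318, 189, 245 and 180 in the Nos2-low libraries (-2.48 ± 0.26). Idh2, the mitochondrial enzyme, was 12.9 to 18.7 against 30.9 to 72.7 (-1.53 ± 0.18). Both isocitrate dehydrogenases separated the classes in every library. Dld, the shared E3 subunit, was the member called higher (1.01 ± 0.32), and its call was lost in 10 of 20 other settings. Succinate dehydrogenase subunits (Sdha at -0.35, Sdhb -0.08, Sdhc 0.12, Sdhd -0.01) were not called. With library size alone 19 of the 22 were called lower, and in the 7 libraries with Xist below 10 CPM 4. None of 25 nuclear respiratory chain genes was called by edgeR (1 at an unadjusted p under 0.05, Uqcrc2), and DESeq2 called 1. Without WT medium 2, edgeR called 7 of them higher, and with library size alone 7 lower.

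Of 28 tested genes of cholesterol and fatty acid synthesis, 9 were called lower and none higher (median -0.77), and 19 did not pass. The called share was 32.1%, where 41.1% of all tested genes were called and 20.5% called lower. The summed level of the list overlapped between the classes, at 465 to 833 against 652 to 1731. Fasn, whose promoter is printed above, was 7.37, 6.90, 6.09, 6.84, 8.77 and 7.24 in the Nos2-high libraries and 37.9, 45.3, 30.4, 58.5, 73.3 and 78.3 in the Nos2-low libraries (-2.84 ± 0.18). The lowest Nos2-low value was over 3 times the highest Nos2-high value. Dhcr7, the last enzyme of cholesterol synthesis, was 2.23 to 5.03 against 13.7 to 34.0 (-2.80 ± 0.28). In other fits more of the list was called lower: 16 without the filter on low counts, 16 in the 7 libraries with Xist below 10 CPM, 21 with a term for Xist and 27 with library size alone.

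Among 15 genes of cholesterol efflux and LXR targets, 2 were called higher and 5 lower (46.7% called, near the 41.1% of all tested genes). Ch25h, which makes the antiviral 25-hydroxycholesterol, was 61.0 to 234 against 0.341 to 5.34 (6.37 ± 0.85), and its 2 highest Nos2-low values were those of WT medium 2 and the library labelled KO LPS 1. Lipa, the lysosomal acid lipase, was 247 to 502 against 823 to 1645 (-1.68 ± 0.25), and Nceh1, a cholesterol ester hydrolase, differed by -1.59 ± 0.27. The carrier Apoe (-0.03) and the exporter Abca1 (0.00) were not called. Of 30 lysosomal genes, 3 were called higher and 7 lower (33.3% called, below the 41.1% of all tested genes). The channel gene Mcoln2 was higher (2.03 ± 0.29) where its paralogue Mcoln3 was lower, and Tfeb, the master regulator of lysosomal genes, was lower (-1.56 ± 0.28). The proteases Ctsb (-0.02) and Ctsd (-0.33) were not called. The lysosomal counts were fragile: 19 were lower with library size alone, 3 in the 7 libraries with Xist below 10 CPM, and 4 without WT LPS 3, WT medium 1 or the libraries labelled KO medium 3 or KO LPS 2.

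Surface receptors differed in both directions, 9 of 30 called higher and 9 lower (60% called, against 41.1% of all tested genes). Fc gamma receptor genes were higher, Fcgr1 at 1660 to 2381 against 296 to 561 (2.36 ± 0.22) and Fcgr4 at 909 to 1586 against 121 to 316 (2.74 ± 0.28). The HDL receptor Scarb1 (-1.47 ± 0.21), the fractalkine receptor Cx3cr1 (-2.07 ± 0.42), the mannose receptor Mrc1 (-1.25 ± 0.31) and Csf1r (-0.97), the receptor for the growth factor in the medium, were lower. The calls of Cx3cr1 (-1.05) and Mrc1 (-0.71) were lost in the libraries with Xist below 10 CPM. Among 17 alternative activation genes 4 were called higher and 4 lower (47.1% called, near the 41.1% of all tested genes). Il4ra was 1150 to 2213 against 116 to 244 (3.29 ± 0.24), and Pparg, a lipid-sensing nuclear receptor, was 4.87 to 8.69 against 38.4 to 50.8 (-2.74 ± 0.21). In the 7 libraries with Xist below 10 CPM, 3 surface receptors and 2 alternative activation genes were called lower, and without WT LPS 1 the latter list had 2 called higher. Clec10a was lower (-2.75 ± 0.66), but not called at -0.38 in the libraries with Xist below 10 CPM.

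Stress genes were called in both directions. Of 20 NRF2 and antioxidant genes, 8 were called higher and 3 lower (55% called, against 41.1% of all tested genes). Sod2, the mitochondrial superoxide dismutase that NF-kappaB induces, was 1189 to 3554 against 70.7 to 231 (4.33 ± 0.36), while Cat, which encodes catalase, was 82.3 to 134 against 176 to 486 (-1.53 ± 0.27) and Gclc, which starts glutathione synthesis, differed by -2.00 ± 0.33. The NRF2 targets Nqo1 (0.09) and Txnrd1 (0.29) were not called. In the ATF4 list of 22, 6 were called higher and 7 lower (59.1% called, against 41.1% of all tested genes), with Nupr1 (4.49 ± 0.33) and Wars (2.02 ± 0.29) above and Shmt2 (-1.24 ± 0.16) and Atf5 (-1.41 ± 0.19) below. Of 20 ER chaperone and unfolded protein response genes, 2 were higher and 4 lower (30% called, below the 41.1% of all tested genes). Hspa5, which encodes BiP, was higher (1.20 ± 0.28) and Hyou1 lower (-0.97 ± 0.18), and the call of Hspa5 was lost with library size alone, at 0.53. On that scale 14 of this list and 7 of the NRF2 list were called lower, and in the 7 libraries with Xist below 10 CPM 1 gene of this list and 4 of the ATF4 list were. Without the library labelled KO LPS 1, 4 genes of this list were called higher.

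Of 32 cell cycle and replication genes, 2 were called higher and 11 lower (median -0.56). That is 40.6% called, near the 41.1% of all tested genes. The replicative helicase genes Mcm2, at 3.93 to 13.6 against 13.9 to 36.9 (-1.88 ± 0.29), and Mcm7 (-1.67 ± 0.27) were lower. Mki67, the proliferation marker, was not called, at 31.5 to 78.1 against 25.4 to 62.1 (0.58 ± 0.27), and it was -0.12 with library size alone, where 24 of the list were called lower. Tpx2, a spindle factor, was higher, at 61.6 to 136 against 8.89 to 23.2 (2.82 ± 0.28). Of 35 ribosomal protein genes only Rpl24 was called, at means of 2.03 and 0.573, far below the others, and 13 of 20 other settings lost that call. With library size alone 10 of these genes were called lower, and with a term for Xist 6.

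Markers of other cell types were compared over the same classes, between which 41.1% of all tested genes were called. Macrophage markers were abundant in all 12 libraries, with summed levels of 20913 to 44520, and 3 of 13 were called higher and 3 lower. Neutrophil and granule markers summed to 1644 to 6142 in the Nos2-high and 811 to 6183 in the Nos2-low libraries, with 2 of 15 called higher (Csf3r and S100a8) and 3 lower (Retnlg, Elane and Mpo). The Nos2-low libraries that stood out were those labelled KO LPS 2 and 3, with Mpo at 248 and 582 where the other 10 ranged from 4.86 to 42.3. B lineage markers summed to 320 and 884 there and to 71.3 to 160 in the other 10, and 3 of 9 were called lower. Stromal markers had 7 of 15 called higher (median 1.36), with summed levels of 101 to 681 against 61.9 to 176 and the highest value in WT LPS 3, and DESeq2 called 11. T and NK cell markers had 1 of 9 called higher (Lck) and 1 lower (Klrb1c), and dendritic cell markers 1 of 8 higher (Clec9a) and 2 lower (Batf3 and Flt3). None of 9 platelet, 2 erythroid and 5 mast cell markers that were tested was called by edgeR (1 at an unadjusted p under 0.05, the platelet integrin gene Itgb3) or by DESeq2. The part of these markers in any list above was not tested.

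The difference was then compared between its 2 arms, WT LPS minus WT medium and labelled KO medium minus labelled KO LPS, which share no library. That comparison is independent of the Nos2 rule. In terms of the labels it is the LPS effect summed over both genotypes, both labelled LPS groups minus both labelled medium groups. A gene not called here is therefore also not called between the LPS and medium labels over both genotypes. No gene of the 13773 was called (0%; edgeR quasi-likelihood test, smallest adjusted p = 0.896), and 553 genes (4.02%) had an unadjusted p under 0.05. DESeq2 called 0 genes too. Without the filter on low counts, edgeR called 1, the scavenger receptor gene Marco, with a difference between arms of 4.84 (adjusted p = 0.0128). With the filter its difference was 4.86 ± 1.35 and not called (adjusted p = 0.896). Marco was named after its value was seen.

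A p that misses the threshold does not show equal arms or the absence of a labelled LPS effect, and the intervals were wide. Among the 5657 called genes the median absolute difference between arms was 0.46 on the log2 scale, the median width of its 95% interval was 2.49, and 502 genes had an interval within 1 log2 unit of 0. For Nos2 the WT arm was 8.98 ± 0.93 and the KO-labelled arm 10.42 ± 0.99, a difference of -1.44 with a 95% interval of -3.53 to 0.65. For Ifit2 the arms were 4.79 and 5.47 (difference -0.68, -1.67 to 0.31), and for Il1b 4.09 and 5.66 (difference -1.57, -3.43 to 0.29). Of the 114 named genes, 3 had an unadjusted p under 0.05 (Mcm2, Hyou1 and Shmt2), each further from 0 in the KO-labelled arm. Mcm2 differed by 1.58 between arms (95% interval 0.33 to 2.82; edgeR adjusted p = 0.896).

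As a description across genes, which are not independent replicates, the 2 arms correlated with r = 0.837 over all tested genes, and 5648 of the 5657 called genes had the same sign in both. In the arms taken alone, 2526 genes (18.3%) were called in the WT arm and 4186 (30.4%) in the KO-labelled arm. Of these, 1420 (10.3%) were higher and 727 (5.28%) lower in both, and none was called in opposite directions. The call over both arms fixes much of the same-sign count of 5648, and the Nos2 rule set the direction in which both arms were taken.

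**Figure D4:**
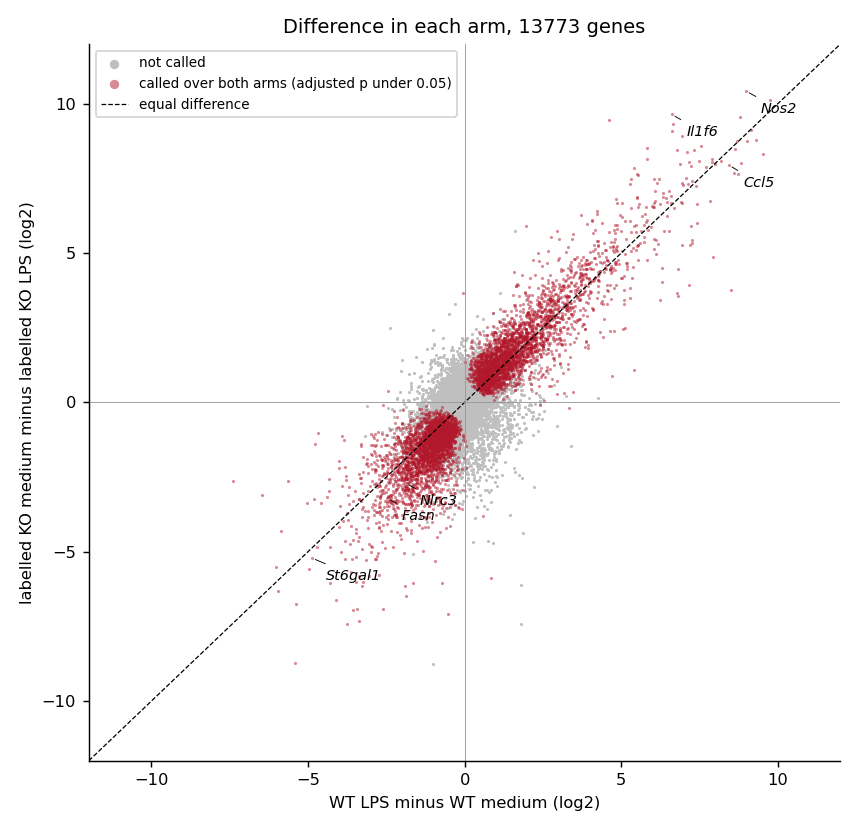
Log2 difference of each of the 13773 tested genes in the WT arm (x axis) and in the KO-labelled arm (y axis), red where called over both arms, with the line of equal difference dashed. Nos2 lies at 8.98 and 10.42, and the genes spread along the line in both directions.

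The genotype label, averaged over both classes, was the other comparison that the Nos2 rule did not use. Again edgeR called no gene (0%; smallest adjusted p = 0.804), with 776 genes (5.63%) at an unadjusted p under 0.05. DESeq2 called 2, the MHC class Ib gene H2-Q1 (4.36, adjusted p = 0.00102) and the immunoglobulin gene Ighg3 (4.37, adjusted p = 0.000282), both higher in the libraries labelled KO. Nlrc3 was not called, at -0.53 ± 0.37 (edgeR adjusted p = 0.819), although the label names its deletion.

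The classes were not uniform inside. Over all tested genes, the library most similar to each (by Pearson r of log2 levels) was of the same class for 12 of 12 libraries, of the same labelled group for 5 of 12, and of the same Xist status for 11 of 12. Xist, the transcript of the inactive X chromosome, exceeded 10 CPM in 1 Nos2-high library (WT LPS 2) and in 4 Nos2-low libraries (WT medium 1 and 3 and those labelled KO LPS 2 and 3). Transcripts of the Y-linked genes Ddx3y, Eif2s3y, Kdm5d and Uty summed to 0 to 0.0378 CPM in those 5 libraries and to 75.1 to 131 CPM in the other 7. WT LPS, WT medium and labelled KO LPS each held both kinds of library, so none of these 3 groups came from a single animal, and the classes differed in the sex of their marrow. WT medium 2 and the library labelled KO LPS 1, the 2 Nos2-low libraries with Xist below 10 CPM, were each other's nearest (r = 0.975), closer than either was to its own labelled group.

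Those libraries also stood apart in level. They were the 2 lowest Nos2-low libraries for 974 of 2083 genes called lower (46.8%), and the 2 highest for 725 of 2376 genes called higher (30.5%), counting genes with at least 5 CPM in the class where they were higher. Chemokines summed to 5006 and 4000 in them, against 1197 to 1665 in the other Nos2-low libraries and 10790 to 28310 in the Nos2-high libraries. Fitted over the 7 libraries with Xist below 10 CPM, 3701 genes were called, of which 3081 were among the 5657, all with the same sign. The part of Xist status in the differences cannot be told apart from that of the other features of those libraries.

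WT LPS 2 was the other library that stood apart, and it was the lowest Nos2-high library for 1419 of the 2376 genes called higher. Its level relative to its class depended on the list. For 20 cytokines called higher its median level was 18.3% of the median of the other 5 Nos2-high libraries, for 10 NF-kappaB genes 36.9%, and for 40 interferon-stimulated genes 72.9%. For 8 glycolytic enzymes called higher it was 103%. Without WT LPS 2, 5968 genes were called, 5326 of them shared with the full set.

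**Figure D5:**
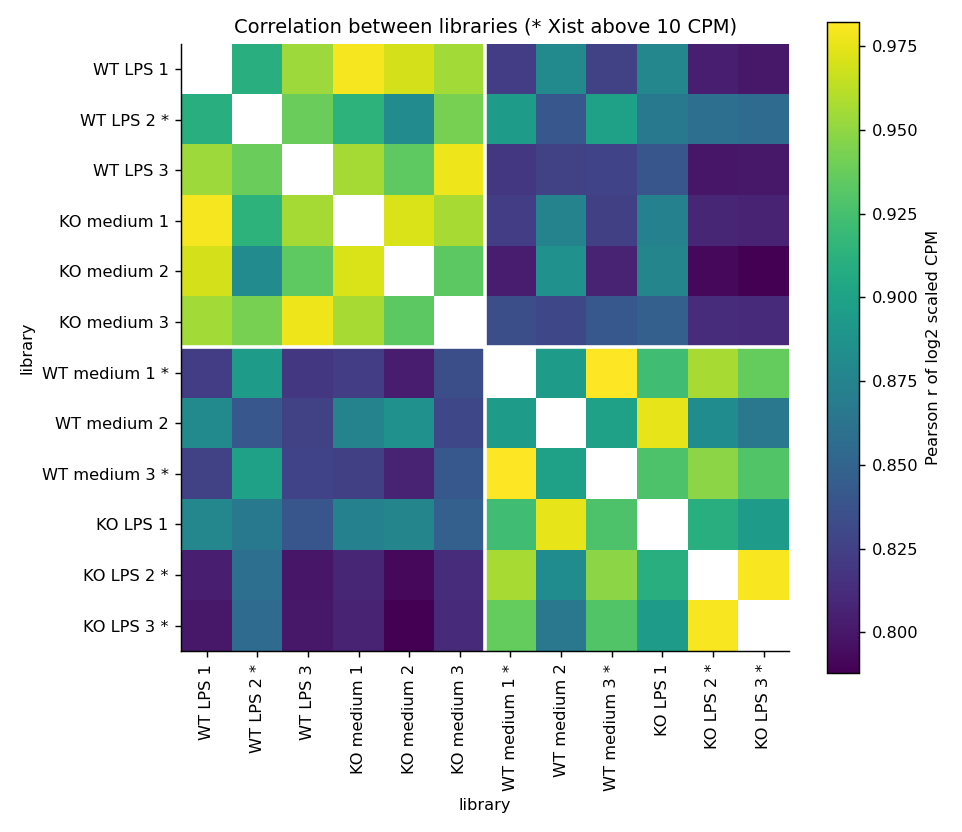
Pearson r between each pair of the 12 libraries over the log2 levels of all tested genes, ordered by class with white lines between the classes and asterisks where Xist exceeded 10 CPM. The lowest r within a class is 0.866 and the highest between classes is 0.899, and WT medium 2 and KO LPS 1 form a bright pair at 0.975.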

How the data were processed

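The count table deposited by the authors holds whole-number read counts per gene, not normalized, for 54446 genes in 12 libraries; the deposited FPKM table was not used. Reads were placed on mm10, per the submitters' processing notes, while no source used here names the aligner, counting tool or strand setting, so overlapping and antisense genes are uncertain. The model was edgeR 4.0.16 under R 4.3.3 (filterByExpr, TMM, glmQLFit, glmQLFTest, 1 mean per labelled group); the fit was tested on simulated data, and SEs come from the F statistic. Positions are from GENCODE M21 (GRCm38). The members and the 39 gene lists were chosen with earlier results of these data known. Named genes were Nlrc3, Nos2, the 12 largest called differences in each direction with at least 5 CPM and no overlap, from each list the 2 higher and 2 lower called members ranked first by p, and 18 genes chosen for their known roles; others are list members named as examples. Alternatives were RLE scaling, library size only, no filter, DESeq2 1.42.0, class plus genotype label, a replicate block, a term for Xist, each library left out in turn and, added after seeing the data, only the 7 libraries with Xist below 10 CPM. Replicate numbers did not pair the libraries: 8 of 18 same-number pairs had correlated deviations over 0.1 (range -0.599 to 0.527). Library codes were not used for pairing. WT LPS 1 and WT medium 2 (C45 and B45) share a code number, as do WT LPS 2 and WT medium 3 (C50 and B50). Their deviations correlated at 0.577 and 0.442, and those of WT LPS 2 and WT medium 1, with unlike code numbers, at 0.462. Xist status was shared within each of these pairs, at 0.0867 and 0.277 scaled CPM in C45 and B45 and at 431 and 434 in C50 and B50. WT medium 1, at 433, has the same status as WT LPS 2 too. Whether libraries with a shared code number came from 1 animal is not in the labels, and such a pairing was not tested. The labels also do not explain the codes D481 and D482, of the libraries labelled KO medium 2 and 3. No library repeated another (smallest chi-square per degree of freedom within a group 22.3).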

Additional observations from a re-analysis of the deposited data

Results flagged for a closer look

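In 13 of 90 groups of 6 libraries tested, the highest or lowest library lay far from the others (a gap above Dixon's 95% critical value). The groups reuse the same 12 libraries, the levels were not put on a log scale, and many of the genes were chosen from these data. A rate of chance flags therefore cannot be set beside the 13. WT LPS 2 was the distant library for 7 of the Nos2-high groups: Nlrc3 at 4.32, Sesn1 at 21.6, Tmem273 at 4.93, Sgsh at 9.44, Rnf144b at 8.69 and Acod1 at 2277 scaled CPM, and a TMM factor of 1.02. For the 5 genes of lower level in that class it was the highest library, and for Acod1 it was the lowest. WT medium 2 was the highest Nos2-low library for Il1f6 at 0.554, Cxcl10 at 35.7 and Fam3b at 0.139, the last near the level of a few counts. WT medium 1 was highest for Mcoln3 at 72.3, and the library labelled KO LPS 1 for Arg1 at 126. In the Nos2-high class, the library labelled KO medium 3 was highest for Mrc1 at 274. The causes were not tested.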

How the results depend on the processing

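Of 114 named genes, 92 kept direction and call under all 20 settings and 106 under each left-out library. The calls ran from 4709 to 6296 with a library left out (2378 to 3183 higher, 2304 to 3143 lower), and no gene was called in the 2 other comparisons then. Replicate numbers shared by the groups did not pair the libraries, and with a replicate block 5285 genes were called, 5181 of them shared. Library size only gave 1538 higher and 6597 lower, and turned H2-Ab1 (-0.0244), Dnajb11 (-0.0676), Pkm (-0.0198) and Mki67 (-0.12). The 7 libraries with Xist below 10 CPM gave 3701 calls, 1421 lower, and turned Ciita (0.30) and Pkm (-0.0204). Without the filter on low counts, the difference between arms had 1 call (1 higher in the WT arm), and the genotype label 6 (5 higher and 1 lower in the libraries labelled KO); DESeq2 gave that label 2 calls, both higher. The causes were not tested. Depth limits Ifnb1, Sigirr, Shisa3 and the other genes near 0 in a class.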

Other observations

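Without the filter on low counts, the 6 genes that edgeR called for the genotype label were H2-Q1 (4.30), Ighg3 (4.26), Igkv8-21 (4.92), Lyz1 (2.76) and Rps27rt (1.58), higher in the libraries labelled KO, and Xist (-5.89), lower there. H2-Q1 and Ighg3 had only 410 and 347 counts over all 12 libraries. These genes were named after their values were seen. In WT LPS 2, costimulatory genes called higher had a median of 32.7% of the other 5 Nos2-high libraries, enzymes and effectors 38.0%, NRF2 and antioxidant genes 49.9%, and MHC class I loading genes 64.1%.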
